A study of Mus musculus with 6 samples.

Results

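The VEGF and PDGF growth factors and their receptor tyrosine kinases were examined in nuclei of the mouse cerebellum as a fixed list of 10 genes of the 32286 listed in the count tables. The list held 3 VEGF ligands (*Vegfa*, *Vegfb*, *Vegfc*), 2 VEGF receptors (*Flt1*, *Kdr*), 3 PDGF ligands (*Pdgfa*, *Pdgfc*, *Pdgfd*) and both PDGF receptors (*Pdgfra*, *Pdgfrb*), given by name. No value or threshold enters that list, although it was drawn up with earlier results of these data known. Counts of each gene were summed per mouse and per cell type label that the authors had given to each nucleus with SingleR, a classifier that compares a nucleus with a reference atlas. Whole cerebella of 3 *Pcp2-ATXN1[82Q]* mice (SCA1) and 3 wild-type C57BL/6 littermates (WT) were profiled by single nuclei RNA sequencing, all at 12 weeks of age. In the SCA1 mice the *Pcp2* promoter drives human *ATXN1* with an expanded CAG repeat in Purkinje cells, so any difference in glia or vessels was measured in cells in which the transgene is not designed to be active. The model is 1 transgenic line. Nuclei hold unspliced and spliced RNA, and no protein was measured.

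VEGF-A is the main growth factor for vessels and binds both FLT1 and KDR, which endothelial cells carry. VEGF-B binds FLT1, and VEGF-C acts through FLT4 and, after processing, KDR. The PDGF receptor alpha binds PDGF-A and PDGF-C and is known as the receptor of oligodendrocyte precursors and fibroblasts, while PDGF-D acts through the PDGF receptor beta, which pericytes need to be recruited to vessels. In the brain, ligands made by neurons and glia therefore meet receptors that sit largely on vascular cells, fibroblasts and precursors.

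The 6 libraries held 45473 nuclei in all, from 3354 to 10897 per mouse, and from 18916647 to 98366627 unique molecular identifiers (UMIs, the counted molecules). The median nucleus held between 2246.5 and 7253 UMIs. Both mice numbered 3 stood apart from the rest, as genes that span at least 100000 bp took 57.7% of the UMIs of SCA1 mouse 3 and 58.9% of those of WT mouse 3, against 42.9 to 45.7% in the other 4 mice. In all, 254 of 45219 distinct barcodes occurred in more than 1 library. Nuclei labelled as Purkinje cells held 12, 15 and 19 UMIs of human *ATXN1* in the 3 SCA1 mice and 0 in each WT mouse, where a count of 0 allows up to 0.926 to 3.62 counts per 1000000 UMIs (CPM, with a limit of 3 counts). Nuclei of all other labels held 0.390 to 1.13 CPM of human *ATXN1* in all 6 mice, WT mice included. RNA of other cell types was counted in every label. *Gabra6*, a granule neuron gene, stood at 697 CPM in granule neurons and still at 133 CPM in Bergmann glia and 155 CPM in velate astrocytes. Low levels of a gene in a label are therefore given without being read as expression there.

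Of 24 labels, 13 had at least 10 nuclei in every mouse and are described here one by one. They were granule neurons (37532 nuclei), oligodendrocytes (1384), Bergmann glia (1243), velate astrocytes (1014), Purkinje cells (292), 4 *Gad1Gad2.Pvalb* interneuron labels, the *Gad1Gad2.Lgi2* neurons (240), the *Slc17a6.Nrgn* neurons (757), the *Slc17a6.Sln* neurons (104) and a label named Endothelial_Tip.Dcn.Nnat (242). The *Pvalb-Nefh* and *Pvalb-Rab3b* interneurons were rich in *Sorcs3* (1947 and 1639 CPM), and the *Pvalb-Cadm1* and *Pvalb-Chrm2* interneurons in *Nxph1* (4653 and 2204 CPM). The authors assigned cell types only where cluster and SingleR label agreed, whereas all nuclei of a label were used here. Only 14.4% of *Pvalb-Chrm2*, 0% of *Pvalb-Rab3b* and 47.9% of *Lgi2* nuclei carried the most frequent label of their cluster. In the other larger labels it was 77.9 to 99.2%. The *Slc17a6.Sln* neurons held the unipolar brush cell genes *Lmx1a* (485 CPM) and *Eomes* (106 CPM). The Dcn.Nnat label went in part against its endothelial name. It held the fibroblast genes *Dcn* (413 CPM), *Slc6a13* (411 CPM) and *Col1a2* (346 CPM), whereas the endothelial genes *Pecam1* and *Cldn5* stood at 2.20 and 1.32 CPM, and it is called here the Dcn.Nnat nuclei. Other endothelial genes were present at a lower level than in stalk nuclei, with *Cdh5* at 103 against 222 CPM and *Abcb1a* at 167 against 1034 CPM. Endothelial nuclei proper fell under 3 labels named Endothelial_Stalk, each too small for a description per mouse. Their sum held 136 nuclei, 11 to 37 per mouse, and was added as a further group after the data had been seen. Those stalk nuclei also held the pericyte genes *Rgs5* (1713 CPM) and *Vtn* (836 CPM), so they were not free of mural RNA.

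The genes lie apart in the genome, apart from *Pdgfra* and *Kdr*, which are near neighbours on chromosome 5. In GRCm38 with the GENCODE vM21 annotation, *Vegfa* spans 17:46016993-46032369, *Vegfb* 19:6982473-6987651 and *Vegfc* 8:54077606-54187096. *Flt1* spans 5:147561604-147726011 and *Kdr* 5:75932827-75978458. *Pdgfa* spans 5:138976014-138997370, *Pdgfc* 3:81036416-81214040 and *Pdgfd* 9:6168584-6378850. *Pdgfra* spans 5:75152292-75198215. *Pdgfd* (210267 bp), *Pdgfc* (177625 bp), *Flt1* (164408 bp) and *Vegfc* (109491 bp) belong to the long genes whose share of UMIs was high in both mice numbered 3, whereas *Vegfb* spans 5179 bp.

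The promoters of *Flt1*, *Kdr* and *Pdgfd*, whose levels differed widely between labels, are shown as the 250 bases before the RefSeq transcription start, 5′ to 3′ on the strand of the gene, in GRCm38.p6. For *Flt1* (chr5:147726012-147726261, minus strand) and *Kdr* (chr5:75978456-75978705, minus strand) the capitals mark GGAA or its reverse complement TTCC, the core letters bound by ETS factors, which are known regulators of endothelial genes. For *Pdgfd* (chr9:6168236-6168485, plus strand) the capitals mark TTGGC or GCCAA, the letters of the nuclear factor I site found in many astrocyte genes.
Flt1: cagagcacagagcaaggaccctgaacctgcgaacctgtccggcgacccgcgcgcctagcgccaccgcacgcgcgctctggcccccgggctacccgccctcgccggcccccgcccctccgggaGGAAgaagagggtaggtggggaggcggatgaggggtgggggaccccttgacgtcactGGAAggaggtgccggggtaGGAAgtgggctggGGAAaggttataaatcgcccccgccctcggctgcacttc
Kdr: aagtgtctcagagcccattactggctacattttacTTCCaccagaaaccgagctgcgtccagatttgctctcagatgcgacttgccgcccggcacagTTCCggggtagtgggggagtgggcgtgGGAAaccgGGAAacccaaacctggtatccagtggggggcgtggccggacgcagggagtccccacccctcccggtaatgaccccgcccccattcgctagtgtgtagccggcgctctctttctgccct
Pdgfd: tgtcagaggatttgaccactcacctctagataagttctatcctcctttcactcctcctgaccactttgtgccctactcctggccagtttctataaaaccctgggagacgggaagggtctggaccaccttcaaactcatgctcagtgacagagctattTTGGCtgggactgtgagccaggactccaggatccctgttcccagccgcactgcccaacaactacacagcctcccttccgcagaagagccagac
The windows of *Flt1* and *Kdr* held 4 GGAA matches each, against a mean of 2.91 over 32841 mouse promoter windows of this length, of which 93.5% held at least 1. The count does not set these receptors apart, as *Pdgfc* and *Pdgfra* also held 4, *Pdgfa* 4 in each of its windows and *Vegfa* 6 in one of its windows. The window of *Pdgfd* held 1 TTGGC match, as did 41.5% of all windows with 1 or more. Windows were read for 9 of the 10 members, as *Pdgfrb* was left out of this search, and a match describes letters and not a bound site.

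The VEGF receptors *Flt1* and *Kdr* had the narrowest distribution of the list. *Flt1*, which binds VEGF-A and VEGF-B, stood at 4005 ± 1067 CPM in the summed endothelial stalk nuclei (mean ± SD, n = 6 mice, both genotypes together, as for all levels below). It was 2647, 3504 and 3471 CPM in SCA1 mice 1 to 3 and 3859, 5075 and 5470 CPM in WT mice 1 to 3. Next came the Dcn.Nnat nuclei with 94.9 ± 26.0 CPM, and no mouse of these reached the lowest stalk value. All 12 other labels stood at 5.05 CPM or less, and their ranges did not overlap that of the Dcn.Nnat nuclei. At least 1 *Flt1* UMI was found in 96.3% of stalk nuclei and in 28.1% of Dcn.Nnat nuclei, against 1.47% of granule neuron nuclei. The 68 Dcn.Nnat nuclei with a *Flt1* UMI still had 0 CPM of *Cldn5*. Against the Dcn.Nnat nuclei without a *Flt1* UMI, their endothelial gene *Abcb1a* stood lower, at 33.5 against 240.0 CPM, and *Cdh5* at 109 against 99.5 CPM. Of the members, *Kdr* stood higher in them, at 26.1 against 6.14 CPM, as did *Pdgfrb*, at 151 against 62.7 CPM, while *Pdgfra* stood at 79.5 against 127.5 CPM and *Pdgfd* at 442 against 418 CPM. The fibroblast genes did not move together, with *Dcn* at 307 against 471 CPM, *Col1a2* at 384 against 325 CPM and *Slc6a13* at 595 against 309.5 CPM. This split was made on *Flt1* and carries no test.

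*Kdr*, the main signalling receptor of VEGF-A, followed the same order at its top. It stood at 212 ± 56.2 CPM in the stalk nuclei and at 11.04 ± 8.56 CPM in the Dcn.Nnat nuclei, whose ranges over mice did not overlap. In the stalk nuclei *Kdr* was 281, 139 and 188 CPM in the SCA1 mice and 258, 240 and 166 CPM in the WT mice, so the WT range lay within the SCA1 range. The other labels stood at 1.598 CPM or less. At this depth the label means of *Kdr* outside vessels rest on 0 to 14 UMIs each over 6 mice, other than 130 UMIs in granule neurons, and no order among them can be read.

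**Figure D1:**
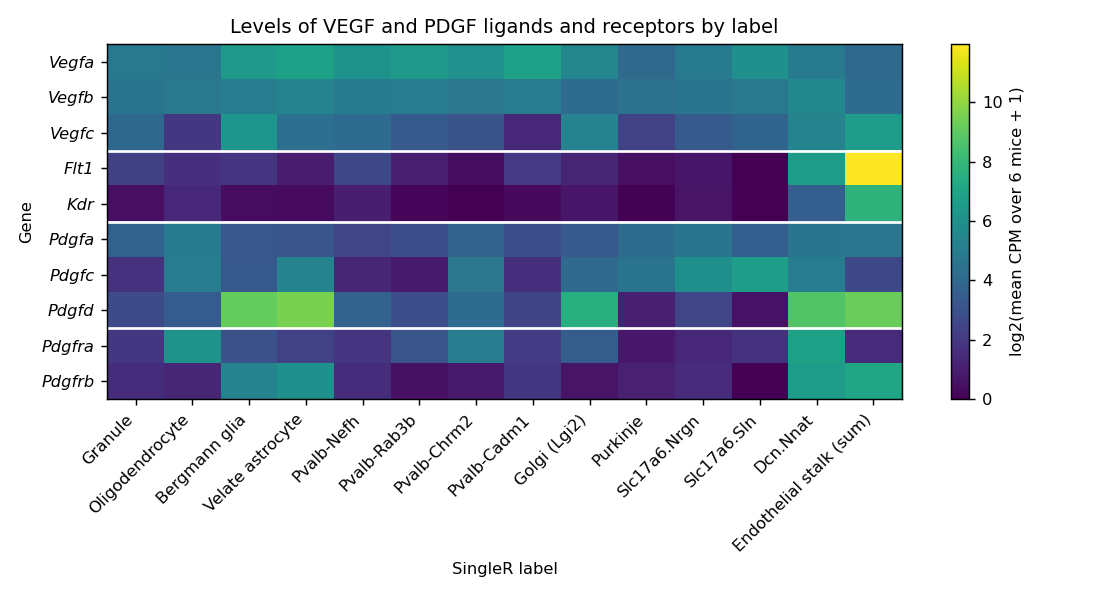
Colour gives log2 of the mean CPM over 6 mice plus 1 for each of the 10 genes (rows, with white lines between VEGF ligands, VEGF receptors, PDGF ligands and PDGF receptors) in 13 SingleR labels and the summed endothelial stalk labels (columns). *Flt1* reached 4005 CPM in the stalk nuclei, *Pdgfd* 752 CPM in velate astrocytes, and *Vegfa* was spread over all columns.

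Among VEGF ligands, *Vegfa* was found in each of the 13 larger labels. It was highest in the *Pvalb-Cadm1* interneurons, with 113 ± 13.4 CPM, and in velate astrocytes, with 109.6 ± 32.5 CPM. Bergmann glia held 85.4 ± 17.6 CPM and the *Pvalb-Rab3b* interneurons 84.2 ± 22.0 CPM. *Pvalb-Nefh* interneurons held 68.8 ± 10.5 CPM, and granule neurons 27.6 ± 5.18 CPM. Purkinje cells stood last with 16.5 ± 7.92 CPM, from 4.82 to 26.8 CPM. Ranges over mice overlapped between all neighbours in this order, so no single step in it exceeded the spread between mice, although the range of the *Pvalb-Cadm1* interneurons (94.7 to 130.2 CPM) lay above that of Purkinje cells. The order differed by genotype at its top, as velate astrocytes (130.1 CPM) stood above *Pvalb-Cadm1* interneurons (119 CPM) in the WT mice and below them (89.1 against 107 CPM) in the SCA1 mice.

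*Vegfb*, which binds FLT1 alone of these receptors, varied the least over the 13 labels when taken as the ratio of the highest to the lowest mean. The Dcn.Nnat nuclei held the highest mean, 47.2 ± 14.2 CPM, followed by velate astrocytes with 40.4 ± 9.85 CPM, and the *Lgi2* neurons held 17.3 ± 9.83 CPM. Mice differed as well as labels. In granule neurons *Vegfb* stood at 34.6, 30.0 and 10.9 CPM in the SCA1 mice and at 37.1, 16.4 and 10.8 CPM in the WT mice, so it was lowest in both mice numbered 3, whose share of UMIs from long genes was high. The part of that share in the level of *Vegfb* was not tested.

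*Vegfc*, known for the growth of lymphatic vessels, had its highest mean in the stalk nuclei, 98.3 ± 84.5 CPM, with a range from 15.0 to 218 CPM that spanned that of Bergmann glia. That mean was carried by few nuclei. In SCA1 mouse 3, 21 of 22 UMIs came from 1 nucleus of the Car4 stalk label, and in WT mouse 1, 46 of 51 came from 8 nuclei of the Mgp stalk label. Without SCA1 mouse 3 the stalk mean was 74.5 ± 68.2 CPM (n = 5). Of the 13 labels Bergmann glia stood first with 77.7 ± 28.8 CPM. Velate astrocytes, the other astroglial label, held 19.9 ± 13.3 CPM, and the ranges of the glial labels met only at their ends, at 45.8 CPM in the highest velate astrocyte sample and 44.8 CPM in the lowest Bergmann glia sample. The *Lgi2* neurons (39.0 ± 17.0 CPM) and Dcn.Nnat nuclei (39.3 ± 15.5 CPM) lay between. *Vegfc* was 1.61 ± 2.51 CPM in the *Pvalb-Cadm1* interneurons, where *Vegfa* was highest.

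Among PDGF ligands, *Pdgfd* had a gap between 2 sets of labels. It stood at 752 ± 192 CPM in velate astrocytes, 599 ± 259 CPM in stalk nuclei, 563 ± 277 CPM in Bergmann glia and 421 ± 126 CPM in Dcn.Nnat nuclei, and these overlapped. The *Lgi2* neurons followed with 184 ± 87.3 CPM, 85.2 CPM in the lowest mouse. The next label, the *Pvalb-Chrm2* interneurons, reached 61.6 CPM in its highest mouse, below every *Lgi2* sample, and had a mean of 17.0 ± 22.2 CPM. Purkinje cells held 1.06 ± 0.859 CPM and granule neurons 5.80 ± 1.41 CPM. A *Pdgfd* UMI was found in 86.5% of velate astrocyte and 74.7% of Bergmann glia nuclei, against 2.24% of granule neuron nuclei. In Bergmann glia *Pdgfd* was 349, 698 and 1007 CPM in SCA1 mice 1, 2 and 3 and 249, 433 and 642 CPM in WT mice 1, 2 and 3, lowest in both mice numbered 1 and highest in both mice numbered 3.

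*Pdgfc*, a PDGFRA ligand that is released as an inactive form, was led by glutamatergic neurons other than granule neurons. The *Slc17a6.Sln* neurons held 98.7 ± 42.8 CPM and the *Slc17a6.Nrgn* neurons 60.5 ± 15.4 CPM. Velate astrocytes (40.4 ± 15.7 CPM) and oligodendrocytes (32.4 ± 8.26 CPM) came next, and Purkinje cells held 23.4 ± 11.1 CPM. Bergmann glia held 8.67 ± 3.28 CPM, below every velate astrocyte sample, whose lowest was 24.7 CPM. The Dcn.Nnat mean of 31.9 ± 38.0 CPM rested on 1 library, as WT mouse 2 stood at 105 CPM from 16 UMIs and the other 5 mice between 2.34 and 34.3 CPM. The *Slc17a6.Sln* label rested on 10 to 20 *Pdgfc* UMIs per mouse.

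*Pdgfa*, the classical ligand for oligodendrocyte precursors, was low and spread out. Oligodendrocytes held 29.2 ± 6.23 CPM, the *Slc17a6.Nrgn* neurons 23.9 ± 7.83 CPM and Purkinje cells 17.9 ± 7.40 CPM, and the ranges of neighbours overlapped down to the *Pvalb-Nefh* interneurons with 4.69 ± 2.04 CPM. Bergmann glia (8.43 ± 4.74 CPM) and velate astrocytes (7.89 ± 3.33 CPM) differed by less than their spread.

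Of the PDGF receptors, *Pdgfra* was highest in the Dcn.Nnat nuclei, with 110.4 ± 44.8 CPM, and in the oligodendrocyte label, with 69.0 ± 23.8 CPM. The *Pvalb-Chrm2* label followed with 31.5 ± 19.2 CPM, and Purkinje cells stood last with 0.740 ± 0.949 CPM. In the *Pvalb-Chrm2* label only 14.4% of nuclei carried the most frequent label of their cluster, and which of its nuclei held *Pdgfra* was not tested. In the oligodendrocyte label the gene was carried by a small set of nuclei. Only 92 of 1384 had a *Pdgfra* UMI, and these were deeper than the others (median 9482.5 against 6330 UMIs). In those 92 nuclei *Vcan*, a precursor gene, stood at 1520 CPM against 14.9 CPM in the rest of the label, and *Cspg4*, which encodes the precursor antigen NG2, at 273 against 5.58 CPM. *Tnr* differed likewise, at 3469 against 115 CPM. So did 2 genes that were high in interneuron labels, *Nxph1* at 2598 against 15.6 CPM and *Sorcs3* at 425 against 116 CPM. The mature myelin genes ran the other way, with *Mog* at 195 against 739.9 CPM and *Mobp* at 258 against 1171 CPM. The ligand *Pdgfa* stood at 10.9 CPM in the 92 nuclei and at 33.8 CPM in the remaining nuclei of that label, and *Pdgfc* at 31.5 and 30.9 CPM. This split was made on *Pdgfra* itself and carries no test. SingleR had placed only 12 nuclei under the polydendrocyte label, with 3 *Pdgfra* UMIs among them.

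*Pdgfrb* had its highest means in the stalk and Dcn.Nnat nuclei, followed by astroglia, an order that did not hold in every mouse. Its mean was 128 ± 137 CPM in the stalk nuclei, where it ran from 0 UMIs in WT mouse 3 to 330.4 CPM in WT mouse 2. The stalk values of SCA1 mice 1 and 2 and of WT mouse 3 lay below every velate astrocyte sample, the lowest being 42.8 CPM. The Dcn.Nnat nuclei held 94.7 ± 41.1 CPM, velate astrocytes 63.8 ± 15.9 CPM and Bergmann glia 39.8 ± 9.34 CPM. Every astroglial sample, down to 30.4 CPM, lay above every sample of the remaining 10 labels, of which the *Pvalb-Cadm1* interneurons led with 2.81 ± 2.71 CPM. In the stalk nuclei the level of *Pdgfrb* and the summed level of the 5 mural markers were both lowest in WT mouse 3, and both were highest in WT mice 1 and 2. That part of *Pdgfrb* which came from mural RNA was not tested.

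Counted by molecules and not per nucleus type, granule neurons, 37532 of 45473 nuclei, held most of the RNA of *Vegfa*, *Vegfb*, *Vegfc* and *Pdgfa*, and held 72.4 ± 1.75% of the UMIs of all genes. On average 56.7% of the *Vegfa*, 65.5% of the *Vegfc* and 66.4% of the *Pdgfa* UMIs of a library lay in granule neuron nuclei, all below that share of all RNA. The receptors, *Pdgfc* and *Pdgfd* departed from this. Stalk nuclei, 136 of 45473, held 74.4 ± 7.51% of *Flt1* and 56.1 ± 9.11% of *Kdr* UMIs. Velate astrocytes held 34.7 ± 3.43% and Bergmann glia 34.1 ± 6.60% of *Pdgfd* UMIs. The *Slc17a6.Nrgn* neurons held 28.7 ± 8.80% of *Pdgfc* UMIs, more than the granule neurons with 19.0%.

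**Figure D2:**
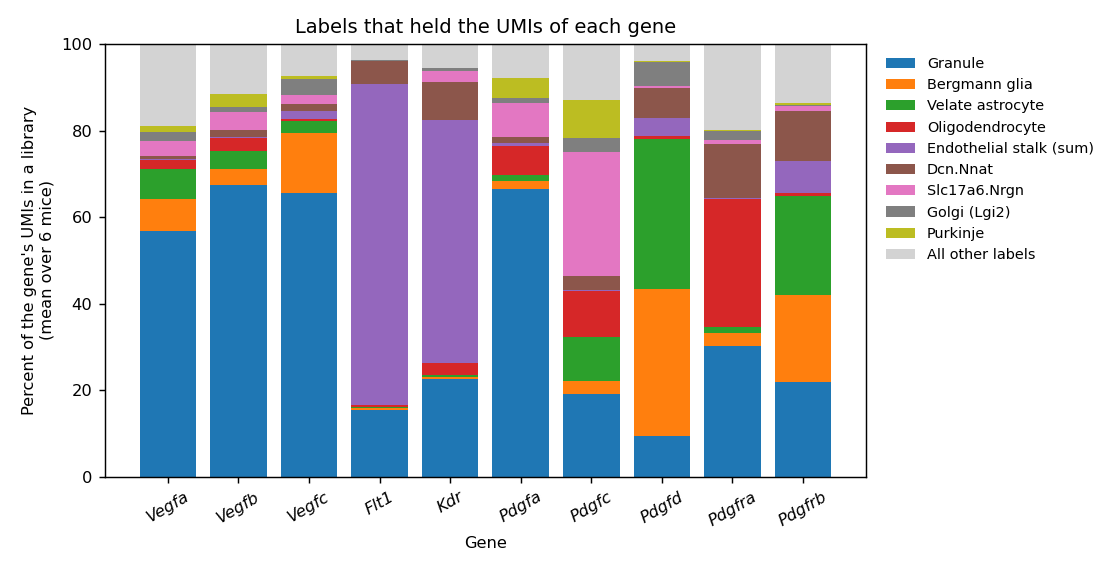
Stacked bars give, for each gene, the percent of its UMIs in a library that lay in each label, as the mean over 6 mice. The stalk nuclei took 74.4% of *Flt1* and 56.1% of *Kdr*, the astroglial labels together most of *Pdgfd*, and granule neurons more than any other label of *Vegfa*, *Vegfb*, *Vegfc* and *Pdgfa*.

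The genes most like each member over the 13 labels were taken as the 3 with the highest Pearson correlation of log2(mean CPM + 1), among 11203 genes that reached 20 CPM in a label. The 13 points share mice, depth and the granule RNA described above, and the correlations are a description. *Pdgfd* was closest to *Mro* (r = 0.92), *Itpkb* (r = 0.92) and *Hes1* (r = 0.91). *Pdgfrb* was closest to *Trim30d* (r = 0.98), *Parp3* (r = 0.98) and *Trim12a* (r = 0.97). *Flt1* was closest to *Foxd1* (r = 0.97), *Tm4sf1* (r = 0.96) and *Bgn* (r = 0.96), and *Kdr* to *Pik3ap1* (r = 0.96), *Kcnk5* (r = 0.95) and *Slc9b2* (r = 0.95), both orders being set by the Dcn.Nnat nuclei since the stalk nuclei were not among the 13 labels. *Pdgfra* was closest to *Rnf43* (r = 0.92), *Wwp2* (r = 0.90) and *Ncoa3* (r = 0.90). *Pdgfc* was closest to *Rhbdl3* (r = 0.91), *Cep112* (r = 0.89) and *Gstz1* (r = 0.88), and *Pdgfa* to *Il1rap* (r = 0.88), *Polr1a* (r = 0.87) and *Plekhm3* (r = 0.86). *Vegfa* was closest to *Pou6f1* (r = 0.89), *Mettl24* (r = 0.89) and *Phyh* (r = 0.88), *Vegfb* to *Oxnad1* (r = 0.95), *Acadm* (r = 0.94) and *Lrp10* (r = 0.94), and *Vegfc* to *Mcc* (r = 0.92), *Gm5089* (r = 0.84) and *Man1c1* (r = 0.82).

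Whether Purkinje cell expression of mutant *ATXN1* went with a different level of these ligands and receptors was asked next, in each label over the 3 SCA1 and 3 WT mice. No member passed the test in any label. Of 130 pairs of member and label, 68 passed the filter on low counts, and 0 had an adjusted p of 0.05 or less (edgeR quasi-likelihood test, Benjamini-Hochberg over all genes tested in the label, lowest adjusted p 0.725). At an unadjusted p under 0.05 there were 4 pairs, 5.88% of the 68, against 1.87% of all gene and label pairs and 6.65% of the genes in Purkinje cells, and DESeq2 on the same sums gave 1 unadjusted and 0 adjusted. Over all genes the share called was 0% in 11 labels, 0.00566% in granule neurons and 0.00917% in oligodendrocytes. In 5 of the 68 pairs the groups did not overlap, 7.35% of them, against 5.55% of all gene and label pairs tested. Those 5 were *Vegfa* and *Pdgfrb* in Bergmann glia, *Pdgfc* in velate astrocytes, *Vegfa* in Purkinje cells and *Vegfa* in *Pvalb-Rab3b* interneurons.

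In Bergmann glia, whose processes wrap Purkinje cell synapses, *Vegfa* was 84.0, 68.0 and 62.8 CPM in the SCA1 mice and 109, 92.7 and 95.9 CPM in the WT mice. Every SCA1 sample lay below every WT sample, with means of 71.6 ± 11.1 and 99.3 ± 8.72 CPM (SD, n = 3 each). The log2 fold change was -0.53 ± 0.21 (SE) and did not pass (edgeR, unadjusted p = 0.031, adjusted p = 1.00). The log2 ratio of mean CPM was -0.38 within batch 1 and -0.53 within batch 2. Values by batch below are such ratios too and not fitted effects. Batch 1 held only mouse 1 of each genotype, and batch 2 mice 2 and 3. *Pdgfrb* behaved alike in these nuclei, with 34.7, 31.4 and 30.4 CPM in the SCA1 mice and 40.0, 51.1 and 50.9 CPM in the WT mice. Its log2 fold change was -0.57 ± 0.24 (edgeR, unadjusted p = 0.038, adjusted p = 1.00), with -0.21 in batch 1 and -0.72 in batch 2. In Bergmann glia 4.94% of all genes tested had groups that did not overlap.

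The sample labels do not pair mice by number, and the share of all genes that agree in all 3 numbers is not given for any value below. *Pdgfd* in Bergmann glia was higher in the SCA1 mouse of each number, at 349 against 249, 698 against 433 and 1007 against 642 CPM, but its groups overlapped. Its log2 fold change was 0.55 ± 0.28 (edgeR, unadjusted p = 0.077, adjusted p = 1.00), with 0.49 in batch 1 and 0.67 in batch 2. It was 0.32 without SCA1 mouse 3, 0.36 without WT mouse 2 and 0.76 without WT mouse 3. With the mouse number as a block it was 0.55 (edgeR, adjusted p = 0.445), although mice numbered 2 hardly deviated together in these nuclei (r = 0.041). A limma test on single nuclei, which counts the nuclei of 1 mouse as independent, gave an adjusted p of 3.84e-09 from the same 5189 UMIs. That test called 4.13% of all genes in Bergmann glia, 1.76% in velate astrocytes and 3.97% in Purkinje cells. *Vegfc* stood at 44.8, 64.3 and 96.6 CPM in the SCA1 mice and 50.5, 92.7 and 117 CPM in the WT mice, lower in the SCA1 mouse of each number, with a log2 fold change of -0.36 ± 0.26 that lay between -0.56, without SCA1 mouse 3, and -0.17, without SCA1 mouse 2.

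In velate astrocytes, the astrocytes of the granular layer, *Pdgfc* was 24.7, 28.4 and 34.9 CPM in the SCA1 mice and 38.4, 48.3 and 67.7 CPM in the WT mice. Those groups did not overlap, as in 4.88% of all genes tested there, and the log2 fold change was -0.82 ± 0.28 (edgeR, unadjusted p = 0.013, adjusted p = 1.00), with -0.64 in batch 1 and -0.87 in batch 2. *Vegfa* was 98.0, 80.7 and 88.6 CPM against 145, 89.0 and 156 CPM, lower in the SCA1 mouse of each number, although WT mouse 2 fell within the SCA1 range. Its log2 fold change was -0.59 ± 0.27, and -0.56 with the mouse number as a block (edgeR, adjusted p = 1.00 in both). Without WT mouse 3 it was -0.31. *Pdgfrb* had a log2 fold change of -0.38 ± 0.25, with overlapping groups, and of -0.19 without WT mouse 2 and -0.25 without SCA1 mouse 3. *Pdgfd* stood here at 538, 817 and 965 CPM in the SCA1 mice and 557, 674 and 962 CPM in the WT mice, with a log2 fold change of 0.035 ± 0.28 whose sign turned when SCA1 mouse 3 or WT mouse 2 was left out.

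In Purkinje cells, which carry the transgene, *Vegfa* was the one member without overlap. It stood at 21.7, 26.8 and 19.5 CPM in the SCA1 mice (55, 29 and 34 UMIs) and at 15.4, 4.82 and 10.8 CPM in the WT mice (50, 4 and 12 UMIs). The log2 fold change was 0.85 ± 0.37 (edgeR, unadjusted p = 0.043, adjusted p = 0.725), 0.49 in batch 1 and 1.57 in batch 2. Leaving out 1 mouse moved it between 0.55, without WT mouse 2, and 1.30, without SCA1 mouse 1. With the mouse number as a block the adjusted p of *Vegfa* was 0.397, and the pairing of mice numbered 2 was weak in these nuclei (r = 0.067). With that block 172 of 9821 genes were called in Purkinje cells against 0 without it, none of them a member. Without overlap were 14.6% of all genes tested in Purkinje cells, a larger share than in the glial labels. *Pdgfc* was 27.7, 41.6 and 20.0 CPM against 16.7, 25.3 and 8.98 CPM, higher in the SCA1 mouse of each number, with a log2 fold change of 0.63 ± 0.38 and overlapping groups. That value was 0.33 without WT mouse 3, 0.37 without SCA1 mouse 2 and 0.95 without WT mouse 2. For *Vegfa*, by genotype, Purkinje cells were lowest of the 13 labels in the WT mice (mean 10.3 CPM) but not in the SCA1 mice, where oligodendrocytes held 20.6 and Purkinje cells 22.7 CPM.

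**Figure D3:**
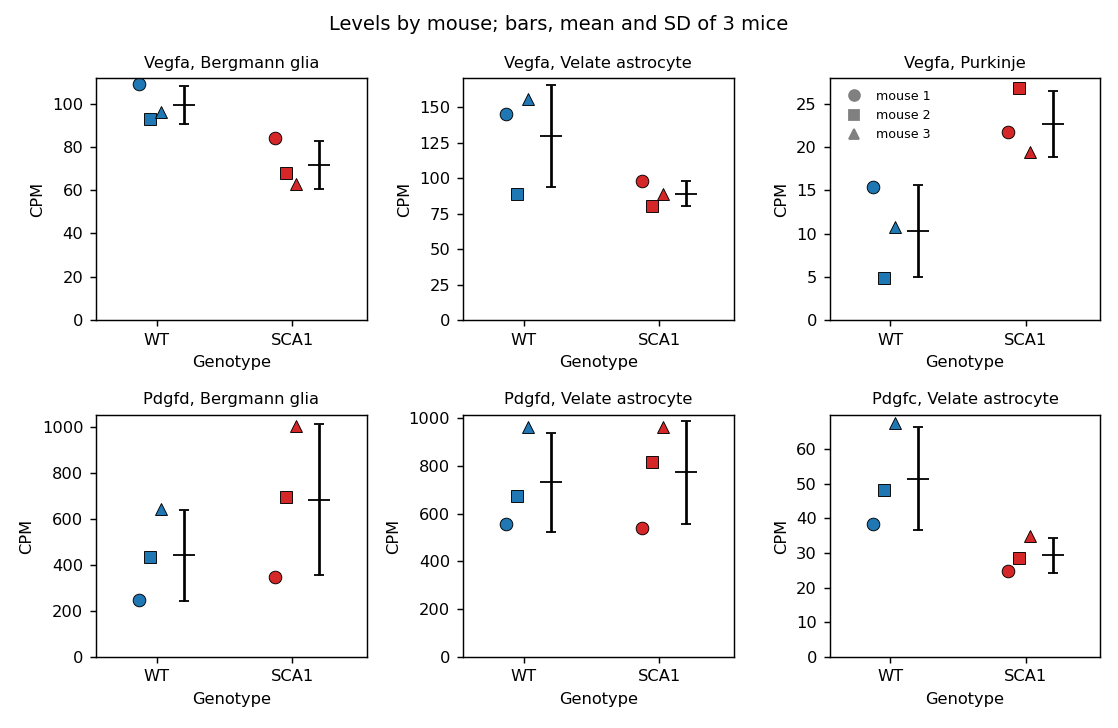
Points give the CPM of 1 gene in 1 label for each mouse (blue WT, red SCA1, the symbol gives the mouse number) and bars the mean and SD of 3 mice, each axis starting at 0. SCA1 samples lay below WT samples for *Vegfa* in Bergmann glia and *Pdgfc* in velate astrocytes and above them for *Vegfa* in Purkinje cells, while *Pdgfd* in both glial labels was lowest in the mice numbered 1 and highest in those numbered 3.

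Over the 13 labels, *Vegfa* was lower in the SCA1 mice in 12 and higher in Purkinje cells alone. The median log2 fold change was -0.41, and the *Pvalb-Rab3b* interneurons were the other label without overlap, at 75.8, 56.6 and 71.6 CPM against 91.5, 121 and 88.8 CPM (log2 fold change -0.52 ± 0.25, edgeR, unadjusted p = 0.059, adjusted p = 1.00), where 5.19% of all genes had groups that did not overlap. Labels share mice and granule RNA and are not independent. Of the genes tested in the same labels, 3.31% were lower in the SCA1 mice in 12 or more. *Pdgfd* was higher in the SCA1 mice in 7 of the 7 labels where it was tested, with a median log2 fold change of 0.26, and 3.48% of the genes tested in those labels were higher in every one. Counted likewise, in the direction each member itself took, the share was 27.9% for *Vegfb*, 47.8% for *Vegfc* and 29.3% for *Pdgfa*. It was 42.5% for *Pdgfc*, 37.9% for *Pdgfra* and 62.7% for *Pdgfrb*. Leaving out 1 mouse at a time, *Vegfa* was lower in 11 or 12 of the 13 labels. *Pdgfd* was less stable, higher in only 4 of 7 labels without SCA1 mouse 1, without WT mouse 1 or without WT mouse 2, and in 6 of 7 without SCA1 mouse 3 or with DESeq2. With mice 1 and 2 of each genotype alone, the counts stayed at 12 of 13 and 7 of 7. With the mice of batch 2 alone, run in 5 labels, *Vegfa* was lower in 4 of 5 and *Pdgfd* higher in 3 of the 4 where it was tested.

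**Figure D4:**
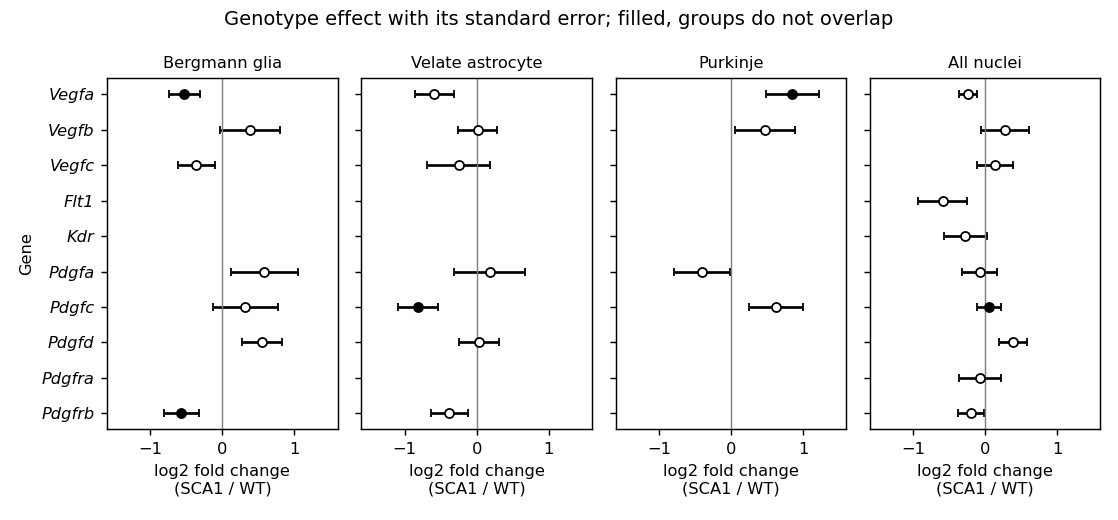
Points give the log2 fold change of SCA1 over WT with its standard error in 4 groups of nuclei, for members that passed the filter. Filled points mark groups that did not overlap; *Vegfa* lies left of 0 in Bergmann glia, velate astrocytes and all nuclei and right of 0 in Purkinje cells.

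The difference of genotype effects between labels was tested in its own model, with each mouse as a block. Of 116 tests of members over 13 pairs of labels, 0 passed (edgeR, lowest adjusted p 0.315), while 0.0834% of all genes did, with 0 to 49 genes called per pair of labels and the 49 in Purkinje cells against granule neurons. All of these pairs but velate astrocytes against Bergmann glia had granule neurons as their reference. Tests of the same gene therefore share the granule neuron counts and are not independent. At an unadjusted p under 0.05 were 16 of the tests, 13.8% of them, against 3.59% of all genes. Some of these members stood near 0 in one label of the pair and had not passed the filter on low counts there. Among them were *Vegfc* in Purkinje cells (36 UMIs), which gave the lowest adjusted p, and *Flt1* in *Pvalb-Rab3b* interneurons (6 UMIs). As such tests rest on few counts in a label, no excess among members is read from these shares. The effect on *Vegfa* in Purkinje cells exceeded that in granule neurons by 0.96 ± 0.34 on the log2 scale (edgeR, unadjusted p = 0.011, adjusted p = 0.413). Against Bergmann glia it was higher by 1.27 ± 0.35 (edgeR, adjusted p = 0.324) and against velate astrocytes by 1.36 ± 0.34 (edgeR, adjusted p = 0.205), both added after the direction had been seen. The effect on *Pdgfd* in velate astrocytes was lower than in Bergmann glia by 0.49 on the log2 scale (SE 0.13, edgeR, unadjusted p = 0.0016, adjusted p = 1.00).

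In the oligodendrocyte label *Pdgfra* was 39.5, 94.4 and 51.7 CPM in the SCA1 mice and 73.2, 57.0 and 98.3 CPM in the WT mice. The groups overlapped, with a log2 fold change of -0.47 ± 0.30. The log2 ratio of mean CPM was -0.89 in batch 1 and -0.09 in batch 2. The log2 fold change was -0.78 without SCA1 mouse 2 and -0.20 without SCA1 mouse 1 or WT mouse 1. The summed level of 4 other precursor genes in that label, 429.8 to 753 CPM in the SCA1 mice and 311 to 1394 CPM in the WT mice, overlapped too, and the part of precursor nuclei in the *Pdgfra* value was not tested.

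In the endothelial stalk nuclei, *Flt1* was below every WT sample in all 3 SCA1 mice, with means of 3208 ± 485 CPM in SCA1 and 4801 ± 839.5 (SD, n = 3 each) CPM in WT mice. The log2 fold change was -0.59 ± 0.41 and did not pass (edgeR, unadjusted p = 0.182, adjusted p = 0.981), with -0.54 in batch 1 and -0.60 in batch 2. Of the genes tested in these few nuclei 0.0566% were called and 7.67% had groups without overlap. The sum of 5 endothelial markers was also lower in the SCA1 mice, at 4115 to 5138 CPM against 5845 to 7551 CPM, and its part in the *Flt1* difference was not tested. The 3 labels entered the stalk sum in unequal parts. Pooled *Flt1* was 3403 CPM in Lrg1, 4797 in Car4 and 3811 in Mgp nuclei. Lrg1 held 20 of 21, 26 of 37 and 9 of 11 nuclei in SCA1 mice 1 to 3. In WT mice 1 to 3 it held 21 of 32, 4 of 24 and 9 of 11. In WT mouse 1, 28 *Pdgfrb* UMIs lay in Car4 and 60 in Mgp nuclei. The part of this mix in the *Flt1* and *Pdgfrb* values was not tested. The 5 mural markers summed to 863 to 1739 CPM in the SCA1 mice and 387 to 4525 CPM in the WT mice. None of the 5 members tested in the stalk nuclei had an unadjusted p under 0.05. *Pdgfrb* came nearest to it, at 37.3, 10.3 and 148 CPM in the SCA1 mice and 245, 330.4 and 0 CPM in the WT mice, with a log2 fold change of -1.94 ± 0.98 (edgeR, unadjusted p = 0.075, adjusted p = 0.975). Leaving out 1 mouse at a time moved it between -3.15, without SCA1 mouse 3, and -1.07, without WT mouse 2, and it passed in none of these fits (edgeR, lowest adjusted p 0.419). With mice 1 and 2 alone, a choice made after seeing the data that left 1 residual degree of freedom, it passed (log2 fold change -3.36, edgeR, adjusted p = 0.0062), as did 0.775% of the 5804 genes then tested. The summed mural markers were then 1739 and 863 CPM in the SCA1 and 4525 and 2823 CPM in the WT mice.

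**Figure D5:**
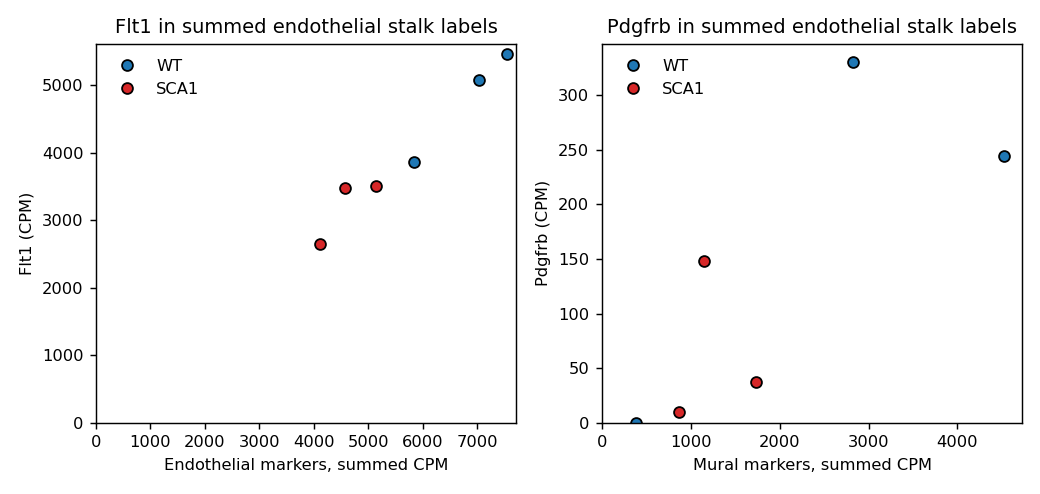
Each point is 1 mouse (blue WT, red SCA1) in the summed endothelial stalk labels, with *Flt1* against the summed CPM of 5 endothelial markers on the left and *Pdgfrb* against that of 5 mural markers on the right, both axes starting at 0. The SCA1 mice lie below 3859 CPM of *Flt1* and below 5845 CPM of endothelial markers, the lowest WT values.

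Over all nuclei of a library, where fewer cells of a type and less RNA per cell cannot be told apart, 0 of 10 members passed and 0 had an unadjusted p under 0.05 (edgeR), while 0.0051% of all genes were called, 1 gene, and 26 genes with the mouse number as a block, 0 of them a member. *Vegfa* was 35.7, 32.3 and 29.6 CPM in the SCA1 mice and 42.2, 39.4 and 31.1 CPM in the WT mice, with a log2 fold change of -0.24 ± 0.12. *Pdgfd* was 41.6, 61.7 and 63.2 CPM against 32.0, 37.2 and 53.1 CPM, with a log2 fold change of 0.39 ± 0.20 that was 0.21 without WT mouse 2 and 0.60 without WT mouse 3. *Flt1* was 12.0, 22.3 and 9.70 CPM against 29.5, 20.9 and 14.5 CPM, with a log2 fold change of -0.59 ± 0.34. The log2 ratio of mean CPM was -1.29 in batch 1 and -0.15 in batch 2. The log2 fold change lay between -0.22, without SCA1 mouse 1 or WT mouse 1, and -1.03, without SCA1 mouse 2. *Pdgfc* alone did not overlap, at 8.76, 8.97 and 8.77 CPM in the SCA1 mice and 8.42, 7.77 and 8.47 CPM in the WT mice, as for 3.92% of all genes tested.

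The other genes of these pathways were followed as a list of 58 further ligands, co-receptors, processing enzymes, oxygen sensors and signalling proteins. Between 19 and 54 of them passed the filter in a label, and 0 passed the test in either direction in any of the 13 labels, in the stalk nuclei or over all nuclei (edgeR). At an unadjusted p under 0.05 there were at most 3 per label. Outside Bergmann glia the Dcn.Nnat nuclei had 2, the *Pvalb-Chrm2* interneurons and stalk nuclei 1 each, and Purkinje cells 1 of 34. In Purkinje cells 6.65% of all genes had such a p. All remaining labels, velate astrocytes included, and the sum over all nuclei had 0. In Bergmann glia, with 40 genes tested, 3 had an unadjusted p under 0.05, 7.5% of them against 1.71% of all genes tested there, and the list had a median log2 fold change of -0.027 against 0.0046 for all genes. In velate astrocytes the median was -0.087 over 37 genes against -0.0059 for all genes, and in Purkinje cells -0.0018 over 34 genes against 0.020. In the stalk nuclei it was -0.186 over 30 genes against -0.045 for all genes. *Nrp2*, a neuropilin that serves as co-receptor for VEGF-C, was the one further gene with groups apart and a log2 fold change of at least 1 in size in a glial, Purkinje or vascular label. Of all genes tested in the Dcn.Nnat nuclei, 5.47% had groups that did not overlap and 0.941% met both conditions. In these nuclei *Nrp2* was 94.2, 84.0 and 153 CPM in the SCA1 mice and 60.8, 39.5 and 33.4 CPM in the WT mice, a log2 fold change of 1.26 ± 0.39 that did not pass (edgeR, unadjusted p = 0.0073, adjusted p = 1.00).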

How the data were processed

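Deposited per the labels were UMI count tables of genes by nuclei for 6 libraries, made from frozen or fresh cerebella with the 10x 3′ chemistry. The authors counted reads with introns included (the labels list Cell Ranger 4.0.0, 5.0.1 and 6.0.1, Seurat 4.0.4 and R 4.1.0) on mm10 with the human *ATXN1* locus added, removed debris and labelled nuclei with SingleR. A step against doublets is not given in the sources used here, and none was applied, so nuclei of mixed content may remain. These whole-number counts were not normalized by the authors. Deep, shallow and long-gene-rich libraries remained unequal.

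Here counts were summed per mouse and label. Levels are CPM of the summed nuclei, with SD over 6 mice and no test across labels, since the labels came from the same counts. SCA1 and WT were compared with edgeR 4.0.16 (quasi-likelihood, TMM, filterByExpr with a minimum count of 10 and total of 15, genotype and batch as terms, Benjamini-Hochberg over all genes of a label, threshold 0.05). Fold changes are on the log2 scale. Values by batch are log2 ratios of mean CPM over the mice of that batch. The labels name no batch, so batch was read from library numbers, those below 7700 (mouse 1 of each genotype) being batch 1. Scripts were tested on simulated data. Intervals and floors (3 counts, 95%) cover counting error only. p-values of the fits on sums measure the spread between 3 mice per genotype that the batch term leaves, with dispersions moderated over the genes of a label. The SE is the size of the log2 fold change divided by the square root of its F statistic.

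Same-numbered mice deviated together from their group means over all nuclei (r = 0.83, 0.31 and 0.76 for numbers 1, 2 and 3). Mice numbered 1 were also the whole of batch 1, so their r cannot be told apart from batch. The sample labels do not pair mice, and a fit with the number as a block was run only as an alternative. Within labels the likeness of same-numbered mice was weaker. The lowest of these r was 0.1 or less in 7 of 13 labels, down to 0.041 for number 2 in Bergmann glia. The members and the pathway list were chosen with earlier results of these data known. Named were the 10 members, genes of the list past the threshold or, in glial, Purkinje or vascular labels, with groups apart and a log2 fold change of at least 1, and the 3 genes most like each member. Alternatives were other scaling (RLE, library size alone), no filter, DESeq2 1.42.0, no batch term, the block, deeper nuclei (at least 3000 UMIs), nuclei whose label was the most frequent of their cluster, each mouse left out, limma 3.58.1 on nuclei scaled with scran 1.30.0, and, added after seeing the data, batch 2 alone, mice 1 and 2 alone and the summed stalk labels. R 4.3.3 and Python 3.11.15 were used. Promoter windows came from RefSeq. Columns of cluster numbers were used only for that alternative.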

Additional observations from a re-analysis of the deposited data

Results flagged for a closer look

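Labels with fewer than 10 nuclei in some mouse were not compared between genotypes. In these, 19 levels exceeded every one of the 13 larger labels, as the lower bound of an exact 95% Poisson interval of the pooled count (counting error only) lay above the highest pooled level among them. No genotype is compared here.

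Vascular labels held most of them. *Flt1* stood at 4797 CPM in Endothelial_Stalk.Flt1.Car4, 3403 CPM in Endothelial_Stalk.Flt1.Lrg1 and 3811 CPM in Endothelial_Stalk.Flt1.Mgp, against 101 CPM in the highest of the larger labels. In the mural labels it stood at 1391 CPM in 5 Mural.Acta2Rgs5.Acta2 nuclei and at 418 CPM in 20 Mural.Acta2Rgs5.Kcnj8 nuclei. *Kdr* stood at 304 CPM in Car4, 252 CPM in Lrg1 and 137 CPM in Mgp stalk nuclei, against 13.2 CPM. The 1391 CPM of *Flt1* rested largely on 1 nucleus of WT mouse 1 with 41 of 49 UMIs, and it was 453 CPM without that mouse. *Vegfc* was 122 CPM in the 36 Endothelial_Tip.Dcn.Apod nuclei, against 64.1 CPM, and 104 CPM without SCA1 mouse 2, which held 8 of its 28 UMIs. It was 156 CPM in the Car4 and 184 CPM in the Mgp stalk nuclei, but both values rested on 1 library. In Car4, 21 of 22 UMIs lay in 1 nucleus of SCA1 mouse 3, and the other 21 nuclei gave 7.35 CPM. In Mgp, 46 of 47 UMIs lay in WT mouse 1, and the other 17 nuclei gave 17.6 CPM.

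The pericyte receptor *Pdgfrb* was highest in the Mural.Acta2Rgs5.Kcnj8 nuclei, at 1121 CPM (interval 914 to 1361), and stood at 198 CPM in Car4, 281 CPM in Mgp and 187 CPM in Dcn.Apod nuclei, against 94.2 CPM. In Car4 all 28 UMIs lay in the 3 nuclei of WT mouse 1 and 0 in the other 19, and in Mgp it was 211 CPM without WT mouse 1. *Pdgfra* was 521 CPM in the Dcn.Apod nuclei (interval 432 to 623), against 110.5 CPM. Its ligand *Pdgfa* was 106 CPM in 83 choroid plexus nuclei (interval 86.0 to 129) and 75.1 CPM in 13 Oligodendrocyte.Trf.Klk6 nuclei (interval 34.3 to 143), against 31.7 CPM. The Klk6 value rested on 9 UMIs, 4 of them in 2 nuclei of SCA1 mouse 3. Without that mouse it was 57.2 CPM from 5 UMIs. *Pdgfd* was 3273 CPM in a Gja1.Gfap label that held 1 nucleus and 16 UMIs, against 673 CPM.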

How the results depend on the processing

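No member passed the test in any of the 13 labels under any alternative run there on sums per mouse, and none over all nuclei. A fit of batch 2 alone was run in 5 labels and not over all nuclei. The limma test on single nuclei, run in the same 5 labels and not in the other 8, gave 4 passing pairs against 0. These were *Vegfa* in Bergmann glia (coefficient -0.15), *Pdgfd* in Bergmann glia (0.49), *Vegfa* in velate astrocytes (-0.17) and *Vegfa* in Purkinje cells (0.23). These coefficients are differences in log2 of the scaled count plus 1 per nucleus. They are not fold changes, and their size cannot be set against the edgeR values. The limma test counts nuclei as replicates and also changed scaling, model and filter, and which of these moved the calls was not tested. Of 18 effects named in the text, 280 of 287 values under alternatives kept their sign and side of the threshold. *Pdgfrb* in stalk nuclei passed with mice 1 and 2 alone (-3.36), and *Pdgfd* in velate astrocytes turned to -0.10 without SCA1 mouse 3 and -0.13 without WT mouse 2, a range of -0.13 to 0.23 over mice left out. Of the 68 pairs tested in labels and the 10 over all nuclei, 41 changed sign under at least 1 alternative, in 109 of 1186 values. Their log2 fold change was 0.59 or less in size. Highest levels stayed within 1 SD in 98 of 100 values. With the stalk labels counted, the highest level of *Flt1* was 4005 CPM and of *Kdr* 212 CPM, not that of Dcn.Nnat nuclei.

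With the replicate number as a block, the effect on *Pdgfd* in Bergmann glia was 0.55 and on *Vegfa* in Purkinje cells 0.81, and the block changed no member's call, 0 within labels and 0 over all nuclei. It did raise the number of genes called over the whole table, in Purkinje cells from 0 to 172, in Bergmann glia from 0 to 8, in granule neurons from 1 to 6 and over all nuclei from 1 to 26. Without the filter 223 genes were called in Purkinje cells, 124 against 2 in stalk nuclei and 31 or fewer in each other label. DESeq2 called 66 in Purkinje cells, 39 in stalk nuclei, 18 over all nuclei and 14 in granule neurons. RLE factors gave 8 in Purkinje cells. Leaving out 1 mouse gave 0 to 8 genes per label, and mice 1 and 2 alone gave 103 in Purkinje cells, 45 in stalk nuclei and 13 or fewer elsewhere. The limma test on nuclei called 532 of 13386 genes in Purkinje cells, 463 of 11201 in Bergmann glia, 226 of 10425 in oligodendrocytes, 198 of 11225 in velate astrocytes and 5 of 11743 in Dcn.Nnat nuclei. The cause was not tested. The alternative with the most frequent label of a cluster was not run in 6 labels that had no such nuclei in some mouse. In neurons other than granule neurons, depth limits *Kdr* and *Pdgfrb*, and *Pdgfra* outside the *Pvalb-Chrm2* label, as those means rest on few UMIs.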
